A study of Mus musculus with 18 samples.

Results

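Loss of the phosphoinositide 3-kinase gene Pik3cd was examined in ovaries of oestradiol-treated juvenile mice, by setting the 3 arrays titled as Pik3cd-/- ovaries after oestradiol (E2) against the 3 titled as Pik3cd+/- ovaries after the same treatment. These are 6 of the 18 arrays of a study with 6 groups of 3 biological replicates: both genotypes untreated, after the gonadotropin PMSG (10 IU, killed 44 hours later) and after E2. All females were on a mixed C57B6J/S129 background and were 21 days old when untreated mice were killed or injections began. The E2 mice received 3 intraperitoneal injections of 0.03 ml E2, 24 hours apart, and ovaries were taken 72 hours after the first. The concentration of E2 is not given in the sources used here, and no group had vehicle injections. The controls carried 1 working copy of Pik3cd and no group was wild type, so each difference is one between no copy and 1 copy. Each array measured total RNA of whole ovaries on a linear intensity scale, and whether a replicate was 1 mouse or a pool is not given. In such bulk samples, fewer cells of a type and less RNA per cell cannot be told apart.

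The product of Pik3cd, p110 delta, is one of the catalytic subunits of the class I phosphoinositide 3-kinases and is best known from leukocytes. Class I enzymes make the membrane lipid that recruits AKT, and active AKT keeps FoxO transcription factors out of the nucleus, so that genes driven by FoxO factors tend to be expressed when the pathway is quiet. In the ovary the pathway is known for holding back or releasing primordial follicles in the oocyte and for survival and hormone responses in granulosa cells, which divide under E2 and enlarge the follicle around the oocyte.

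The genotype labels were checked first with the probe sets of Pik3cd, of which there were 6. The clearest gave 71.2, 66.9 and 73.1 intensity units in the Pik3cd+/- arrays against 19.1, 27.6 and 20.5 in the Pik3cd-/- arrays (log2 difference -1.36 ± 0.11, SE, adjusted p = 1.9e-05 over 23789 probe sets, limma). Another, too dim to be tested, gave 26.8 ± 1.57 against 12.7 ± 1.67 (SD, n = 3). The brightest, which stood for the gene, gave 2329, 2812 and 3075 in the Pik3cd+/- arrays against 2949, 3879 and 3319 in the Pik3cd-/- arrays and did not pass (0.30 ± 0.14, adjusted p = 0.147), and the transcript part that each probe set reads relative to the deletion is not given in the sources used here. All differences below are Pik3cd-/- minus Pik3cd+/- on the scale of log2(signal + 8.58), with 3 arrays a group and the standard error (SE) of the model. That model estimated 1 spread per gene from all 18 arrays in 6 groups. The SE and p therefore do not measure the spread of the 6 E2 arrays alone. A gene was called when its limma p, adjusted over 12711 genes, was under 0.05. The log2(signal + 8.58) scale understates the change of dim genes, and the small number of arrays limits the precision.

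The 3 Pik3cd+/- arrays lay close together and the 3 Pik3cd-/- arrays did not. Pik3cd-/- replicate 3 correlated better with the Pik3cd+/- arrays (mean r = 0.978 over all tested genes) than with its own group (0.969), whereas the other 5 correlated better with their own. On the first principal component of the 6 arrays, which held 47.7% of the variance, the Pik3cd+/- arrays were at -19.5, -20.0 and -12.0, Pik3cd-/- replicates 1 and 2 at 25.1 and 25.9, and replicate 3 at 0.49. Markers of fat differed most among the Pik3cd-/- arrays: the 10 adipocyte genes tested had a summed signal of 4978 to 13559.7 in the Pik3cd+/- and of 794 to 27289 in the Pik3cd-/- arrays, and replicate 2 was lowest of the 6 arrays for 9 genes and replicate 3 highest for 8. Adiponectin (Adipoq), a defining hormone of fat cells, read 1355, 11.5 and 3682 in the 3 Pik3cd-/- arrays. Macrophage, stromal fibroblast and smooth muscle genes were likewise lowest in Pik3cd-/- replicate 2 and highest in replicate 3, so results that touch these cell types are given beside those levels.

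**Figure D1:**
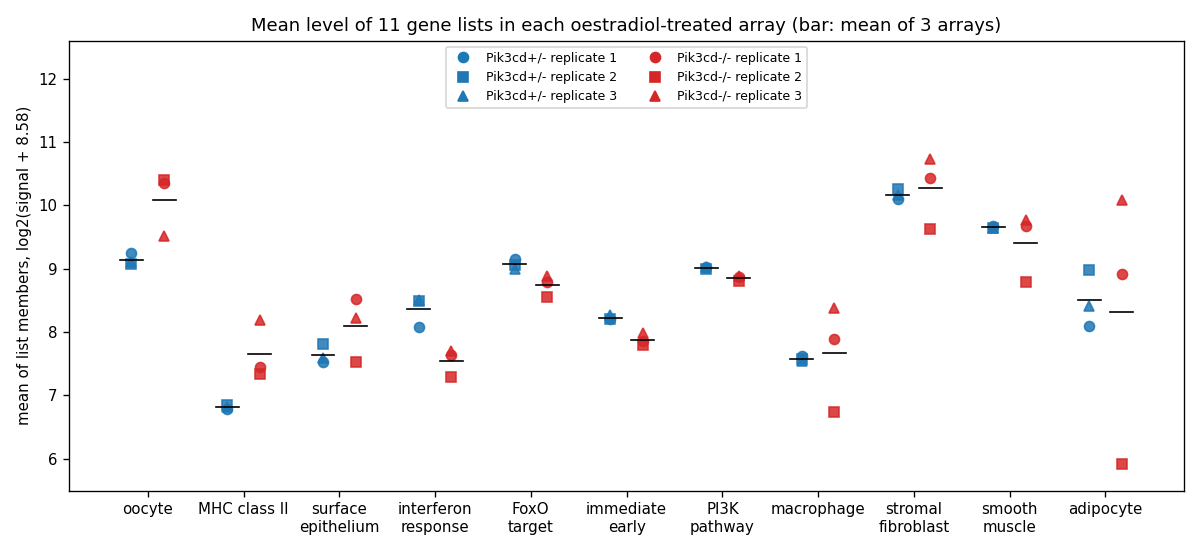
Mean level of the tested members of 11 gene lists in each oestradiol-treated array, as log2(signal + 8.58); colours give the genotype, marker shapes the replicate and bars the mean of 3 arrays. Oocyte genes were at 9.07 to 9.25 in the Pik3cd+/- arrays and at 10.35, 10.39 and 9.52 in the Pik3cd-/- arrays, while adipocyte genes ran from 5.92 to 10.08 within the Pik3cd-/- group.

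After E2, limma called 2141 of 12711 genes between the genotypes (16.8%), 617 higher (4.85%) and 1524 lower (12%) in Pik3cd-/- ovaries. A change of at least 2-fold was reached by 53 of the higher and 76 of the lower genes. The arrays of one genotype all lay above those of the other, called or not, for 4237 genes (33.3%), of which 1128 were higher (8.87%) and 3109 lower (24.5%). The median difference over all genes was -0.07. Each list count below is to be read beside these shares of all genes, and no list was tested against them. With quantile normalization, which moved this median to -0.01, 1788 genes were called and the split shifted to 786 higher and 1002 lower, so the excess of lower genes depends in part on scaling. The count fell to 748 and 791 without Pik3cd+/- replicates 1 and 2 and to 644 and 1258 without Pik3cd-/- replicates 1 and 2. Without Pik3cd-/- replicate 3 it was 2940, 1221 of them higher. A fit to the 6 E2 arrays alone, which takes the spread from these arrays only, called 100 genes. Below, a call is said to depend on 1 array where it ended when at least 1 of the 6 E2 arrays was left out, and the highest adjusted p then reached is given.

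**Figure D2:**
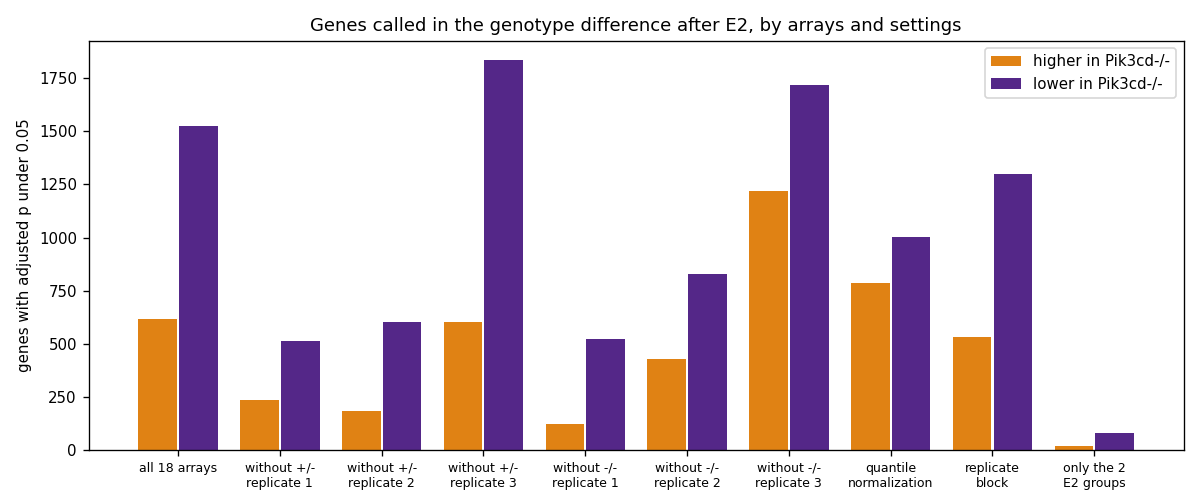
Number of genes called higher (orange) and lower (purple) in Pik3cd-/- ovaries after E2, with all 18 arrays in the fit, with each E2 array left out, and under 3 other settings. The total of 2141 fell to 644 without Pik3cd-/- replicate 1 and to 100 in the fit of the 6 E2 arrays, and rose to 2940 without Pik3cd-/- replicate 3.

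Genes of the oocyte were higher in Pik3cd-/- ovaries almost throughout. Of 29 oocyte genes tested, 28 rose and none fell, where 4.85% of all genes rose and 12% fell. The median difference was 0.96 against -0.07 over all genes. For all 29 genes both Pik3cd-/- replicates 1 and 2 lay above the 3 Pik3cd+/- arrays, and for all 29 replicate 3 was the lowest of the Pik3cd-/- arrays, though it still lay above the 3 controls for 24. Ddx4, an RNA helicase of germ cells, read 108, 97.5 and 123 in the Pik3cd+/- arrays against 408, 389 and 241 in the Pik3cd-/- arrays (1.56 ± 0.16, adjusted p = 3.7e-04), with no overlap. Zp3, a coat protein of the egg, read 2040.3, 1900.1 and 1974 in the Pik3cd+/- arrays against 5289, 5619 and 2963 in the Pik3cd-/- arrays (1.17 ± 0.16, adjusted p = 0.00122), and Zp2, another, rose by 1.13 ± 0.15 (adjusted p = 0.00111). Nlrp5, a maternal-effect gene needed by the early embryo, read 1257, 1028 and 894 in the Pik3cd+/- arrays against 3410.04, 3702 and 1824 in the Pik3cd-/- arrays (1.43 ± 0.22, adjusted p = 0.00176), and its groups did not overlap either. In each of these 4 genes the third Pik3cd-/- array was nearer to the controls than the other two.

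Secreted factors and regulators of the oocyte moved the same way. Gdf9, a growth factor by which the oocyte acts on granulosa cells, read 3832, 3231 and 3330.4 in the Pik3cd+/- arrays against 7372, 7558 and 4146 in the Pik3cd-/- arrays (0.83 ± 0.17, adjusted p = 0.00655). Its partner Bmp15 read 239, 247 and 359.6 in the Pik3cd+/- arrays against 732, 722 and 330.1 in the Pik3cd-/- arrays (0.99 ± 0.26, adjusted p = 0.0208), and its groups overlapped because Pik3cd-/- replicate 3 fell within the Pik3cd+/- range. Figla, a transcription factor that switches on the zona genes, read 165, 129.96 and 124 in the Pik3cd+/- arrays against 348, 439 and 249 in the Pik3cd-/- arrays (1.23 ± 0.28, adjusted p = 0.011). The factors Nobox and Lhx8, both needed for early follicles, rose by 0.99 ± 0.17 and 0.80 ± 0.19 (adjusted p = 0.00294 and 0.014). Kit, the receptor tyrosine kinase on the oocyte surface that signals through phosphoinositide 3-kinase, rose by 0.64 ± 0.21 (adjusted p = 0.0462), near the threshold. The exception on the list was Nlrp4e, at 0.96 ± 0.43 (adjusted p = 0.126). The calls of Bmp15 and Kit ended without Pik3cd+/- replicate 1 or 2 or Pik3cd-/- replicate 1 or 2 (adjusted p up to 0.095 and 0.155), and that of Lhx8 without Pik3cd-/- replicate 1 or 2 (up to 0.0669).

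Of the oocyte genes, 9 were also called higher between the untreated genotypes (0.842% of all genes) and 25 between the PMSG-treated genotypes (3.09%), with medians of 0.59 and 1.04. The number called after E2 became 13 and 17 without Pik3cd-/- replicates 1 and 2, 18 without Pik3cd+/- replicate 2, and 29 without Pik3cd-/- replicate 3. In the fit of the E2 arrays alone it was 2 of 29, with the same median difference of 0.96. The largest rises outside the list included other germ cell genes. Sycp3, a protein of the meiotic chromosome axis, read 163, 191 and 245 in the Pik3cd+/- arrays against 531, 744 and 623 in the Pik3cd-/- arrays (1.63 ± 0.26, adjusted p = 0.00199), the largest rise among called genes without overlap. Mael, which protects germ cells from transposons, read 113, 93.5 and 69.5 in the Pik3cd+/- arrays against 279, 354 and 209 in the Pik3cd-/- arrays (1.52 ± 0.25, adjusted p = 0.0027). Slc25a31, the ADP/ATP carrier of germ cell mitochondria, and Kdm1b, a histone demethylase that prepares imprints in the growing oocyte, rose by 1.28 ± 0.22 and 1.24 ± 0.18 (adjusted p = 0.00294 and 0.00176). Khdc1a, Khdc1b, Ccdc201 and Pramel29 rose by 1.46, 1.25, 1.42 and 1.55 (adjusted p = 5.4e-04, 0.00176, 9.5e-04 and 0.00176). All 8 of these genes were picked among called genes without overlap between the genotypes, so that trait was fixed by the choice.

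Granulosa cell genes split. Among 13 tested genes typical of preantral granulosa cells 4 rose and 1 fell, where 4.85% of all genes rose and 12% fell. Their median was 0.05. Kitl, the ligand that granulosa cells offer to Kit on the oocyte, read 1649, 1541 and 1459 in the Pik3cd+/- arrays against 4075, 2702 and 2333 in the Pik3cd-/- arrays (0.93 ± 0.14, adjusted p = 0.00185), every Pik3cd-/- array above every control. Gatm, an enzyme of creatine synthesis, read 234, 221 and 229 in the Pik3cd+/- arrays against 516, 461 and 498 in the Pik3cd-/- arrays (1.08 ± 0.16, adjusted p = 0.00176), and here the third Pik3cd-/- array was as high as the others. Igfbp5, which binds insulin-like growth factors, and Wt1, a transcription factor of early granulosa cells, rose by 0.67 ± 0.14 and 0.70 ± 0.15 (adjusted p = 0.00852 and 0.00926). Nr0b1, a repressor of steroidogenic factors, fell by 0.74 ± 0.23 (adjusted p = 0.0431). This fall depended on 1 array (adjusted p up to 0.208, and it held only without Pik3cd+/- replicate 3), whereas the 4 rises held with any array left out. In the fit of the E2 arrays alone 1 of the 4 rises was called. Foxl2, which keeps granulosa cell identity, Inha, the inhibin alpha subunit, and Amh, the anti-Mullerian hormone, did not pass, at 0.05 ± 0.13, -0.06 ± 0.12 and -0.36 ± 0.13 (adjusted p = 0.818, 0.741 and 0.0735). For Amh all 3 Pik3cd-/- arrays were nonetheless below the controls (447, 515 and 477 in the Pik3cd+/- arrays against 345, 400.03 and 373 in the Pik3cd-/- arrays).

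Of 17 genes that granulosa cells express in response to FSH, 1 was called, where 16.8% of all genes were. This was Grb14, an adaptor that binds and dampens the insulin receptor, which read 7127, 6678 and 6072 in the Pik3cd+/- arrays against 1700.3, 2432 and 3177 in the Pik3cd-/- arrays (-1.48 ± 0.23, adjusted p = 0.00195). Fshr, the FSH receptor gene, gave 250.4, 165 and 145 in the Pik3cd+/- arrays against 81.6, 116 and 147 in the Pik3cd-/- arrays (-0.66 ± 0.30, adjusted p = 0.136), with overlap. Ccnd2, the cyclin of granulosa proliferation, gave -0.04 ± 0.12 (adjusted p = 0.837), and the activin and follistatin genes Inhba, Inhbb and Fst gave 0.28 ± 0.66, 0.05 ± 0.46 and -0.37 ± 0.33 (adjusted p = 0.789, 0.949 and 0.431). These genes varied within the Pik3cd-/- group, in which Fst read 1877, 3879.97 and 4204.

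The 2 oestrogen receptor genes differed in their result. Esr2, the receptor of granulosa cells, read 679.9, 623 and 617 in the Pik3cd+/- arrays against 242, 322 and 379 in the Pik3cd-/- arrays (-1.03 ± 0.15, adjusted p = 0.00176), with a wide gap between the groups, and was also called lower between the untreated genotypes (-0.74, adjusted p = 0.0283). Esr1, the receptor of theca and stroma, read 791, 902 and 804 in the Pik3cd+/- arrays against 1053, 681 and 1241 in the Pik3cd-/- arrays (0.21 ± 0.23, adjusted p = 0.547). Of 24 known oestrogen targets tested, 1 rose and 4 fell, where 4.85% of all genes rose and 12% fell. The median was -0.04. The rise was that of Cdh1, the epithelial cadherin (0.92 ± 0.22). The falls were those of Esr2, Myc, Fos and Fhl2 (-0.36 ± 0.12, adjusted p = 0.045). The calls of Cdh1 and Fhl2 depended on 1 array (adjusted p up to 0.0742 and 0.199). Greb1 and Pgr, standard targets of the receptor elsewhere, gave -0.11 ± 0.17 and 0.33 ± 0.59 (adjusted p = 0.648 and 0.712). Among 12 tested steroidogenic genes Hsd3b1, which makes progesterone and androstenedione from their precursors, was called higher (0.42 ± 0.13, adjusted p = 0.0416), with overlapping arrays; the call ended without any array other than Pik3cd+/- replicate 1 (adjusted p up to 0.155) and with quantile normalization. Cyp17a1, the enzyme of androgen synthesis, read 729.7, 220.3 and 105 in the Pik3cd+/- arrays against 46.9, 71.9 and 112 in the Pik3cd-/- arrays (-1.72 ± 0.61, adjusted p = 0.0623), and Cyp11a1, the side-chain cleavage enzyme, 1619.6, 528 and 396 in the Pik3cd+/- arrays against 295, 217 and 415 in the Pik3cd-/- arrays (-1.20 ± 0.46, adjusted p = 0.0813). For both the high mean of the controls came mostly from replicate 1, and neither passed with all arrays, though each did in a fit with 1 array left out (smallest adjusted p = 0.0199 and 0.0338).

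Genes of the phosphoinositide 3-kinase pathway fell or did not pass. Of 43 tested, 8 fell and none rose, with a median of -0.13, where 12% of all genes fell and their median was -0.07. In all 3 arrays 21 of the 43 lay below the controls and 2 above them, called or not, where 24.5% and 8.87% of all genes did. Whether the list as a whole departed from these shares was not tested. Catalytic and regulatory subunits were not among the 8: Pik3ca gave -0.24 ± 0.10, Pik3cg 0.29 ± 0.28 and Pik3r1 -0.02 ± 0.15 (adjusted p = 0.0875, 0.483 and 0.947). Pik3cd itself was on the list through its brightest probe set (0.30 ± 0.14), although its clearest one fell, as given above. The subunit genes Pik3cb and Pik3r5 were below the filter. The falls lay at the receptors, at adaptors and brakes, and among the effectors. Irs2, the adaptor that couples the insulin receptor to the kinase, read 187, 182 and 175 in the Pik3cd+/- arrays against 94.2, 92.6 and 109.7 in the Pik3cd-/- arrays (-0.83 ± 0.11, adjusted p = 0.00111). Pik3ip1, a membrane protein that inhibits the kinase, read 1371, 1303 and 1157 in the Pik3cd+/- arrays against 553, 526 and 558 in the Pik3cd-/- arrays (-1.21 ± 0.21, adjusted p = 0.00317). In both genes the 3 arrays of a genotype were tightly grouped, and Pik3cd-/- replicate 3 lay with its own group.

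The receptors Igf1r and Insr fell by 0.34 ± 0.08 and 0.36 ± 0.10 (adjusted p = 0.0114 and 0.0222), and the adaptor Gab1 by 0.48 ± 0.11 (adjusted p = 0.0118). The lipid phosphatase Inppl1 and Eif4ebp2, a translation repressor that the pathway inactivates, fell by 0.35 ± 0.09 and 0.36 ± 0.10 (adjusted p = 0.019 and 0.0246). Foxo1, the FoxO factor most abundant in granulosa cells, read 4411, 4754 and 4779 in the Pik3cd+/- arrays against 2263, 3177 and 3526 in the Pik3cd-/- arrays (-0.66 ± 0.15, adjusted p = 0.0131), while Foxo3, the FoxO factor of primordial oocytes, gave -0.08 ± 0.09 (adjusted p = 0.563). The kinases Akt1 and Mtor gave -0.19 ± 0.06 and 0.02 ± 0.10 (adjusted p = 0.0526 and 0.904). The number of pathway genes called fell to 5 without Pik3cd+/- replicate 1 and to 3 without Pik3cd-/- replicate 1, and rose to 13 lower and 2 higher without Pik3cd-/- replicate 3. It fell to 2 in the fit of the E2 arrays alone. The calls of Irs2, Pik3ip1 and Gab1 held with any array left out, and those of Igf1r, Foxo1, Insr, Inppl1 and Eif4ebp2 depended on 1 array (adjusted p up to 0.0585, 0.0643, 0.0914, 0.0746 and 0.112). Between the untreated genotypes no pathway gene was called (2.18% of all genes were), and between the PMSG-treated genotypes 1 was higher and 2 lower (4.14% of all genes were called).

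FoxO target genes fell as well. Of 27 tested, 11 fell and none rose, where 12% of all genes fell and 4.85% rose. The median was -0.21, and Irs2, Pik3ip1 and Insr, described above, are counted here as well. Gadd45b, a stress and DNA repair gene, read 692, 635 and 391 in the Pik3cd+/- arrays against 178, 206 and 294 in the Pik3cd-/- arrays (-1.30 ± 0.23, adjusted p = 0.0038), and its relative Gadd45a fell by 0.93 ± 0.20 (adjusted p = 0.01). Igfbp1, which holds insulin-like growth factors in solution and is a classical FoxO target of the liver, read 47.4, 64.3 and 60.3 in the Pik3cd+/- arrays against 13.4, 25.8 and 29.9 in the Pik3cd-/- arrays (-1.09 ± 0.21, adjusted p = 0.00553), close to the lower end of the scale in the Pik3cd-/- arrays. Bcl2l11, which encodes the cell death protein BIM, read 1070.1, 815 and 623 in the Pik3cd+/- arrays against 435, 459 and 515 in the Pik3cd-/- arrays (-0.79 ± 0.18, adjusted p = 0.0108). Pdk4, a kinase that restrains glucose oxidation, fell by 0.97 ± 0.26, Klf6 by 0.65 ± 0.15, Sesn1 by 0.53 ± 0.15 and Cited2 by 0.46 ± 0.12 (adjusted p = 0.0221, 0.0121, 0.0264 and 0.0192). The cell cycle inhibitor Cdkn1b and the ubiquitin ligase Fbxo32, also on the list, gave 0.14 ± 0.15 and -0.25 ± 0.20 (adjusted p = 0.53 and 0.395). The count of falls became 5 without Pik3cd+/- replicate 1 and 7 without Pik3cd-/- replicate 2. It was 2 in the fit of the E2 arrays alone. The calls of Gadd45b, Igfbp1 and Gadd45a held with any array left out, and those of Bcl2l11, Pdk4, Klf6, Sesn1 and Cited2 depended on 1 array (adjusted p up to 0.0524, 0.105, 0.0594, 0.103 and 0.0856). Between the PMSG-treated genotypes 7 of these genes were called lower (1.05% of all genes) and between the untreated ones none (1.34% of all genes).

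The promoters of Irs2 and Igfbp1 are shown because both genes fell and both hold, in the 250 bases before the start, the letters CAAAACAA, the core of an insulin response sequence that FoxO factors bind. The letters were searched on both strands and are in capitals (as TTGTTTTG where they lie on the other strand), 38 bases before the start in Irs2 and 108 bases before it in Igfbp1. Sequences are from RefSeq on GRCm38.p6, 5′ to 3′ on the strand of the gene, for Irs2 chr8:11008930-11009179 on the minus strand and for Igfbp1 chr11:7197537-7197786 on the plus strand.
Irs2: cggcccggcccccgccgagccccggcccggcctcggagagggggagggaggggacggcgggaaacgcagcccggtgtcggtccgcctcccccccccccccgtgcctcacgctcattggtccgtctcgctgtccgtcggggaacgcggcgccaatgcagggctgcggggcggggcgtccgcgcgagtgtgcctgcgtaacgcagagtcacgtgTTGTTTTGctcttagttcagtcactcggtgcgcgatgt
Igfbp1: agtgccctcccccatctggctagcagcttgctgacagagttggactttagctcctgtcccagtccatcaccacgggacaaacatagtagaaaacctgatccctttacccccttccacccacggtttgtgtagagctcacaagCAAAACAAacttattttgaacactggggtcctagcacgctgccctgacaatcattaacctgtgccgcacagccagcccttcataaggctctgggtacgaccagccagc
Among the 10 called FoxO targets with a RefSeq promoter these 2 held the letters, and among all 25 tested with a promoter 4 did (16%), against 1.87% of the 10253 tested genes with a promoter. Among genes called lower after E2 the share was 2.65% of 1243, and among those called higher 2.31% of 477.

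**Figure D3:**
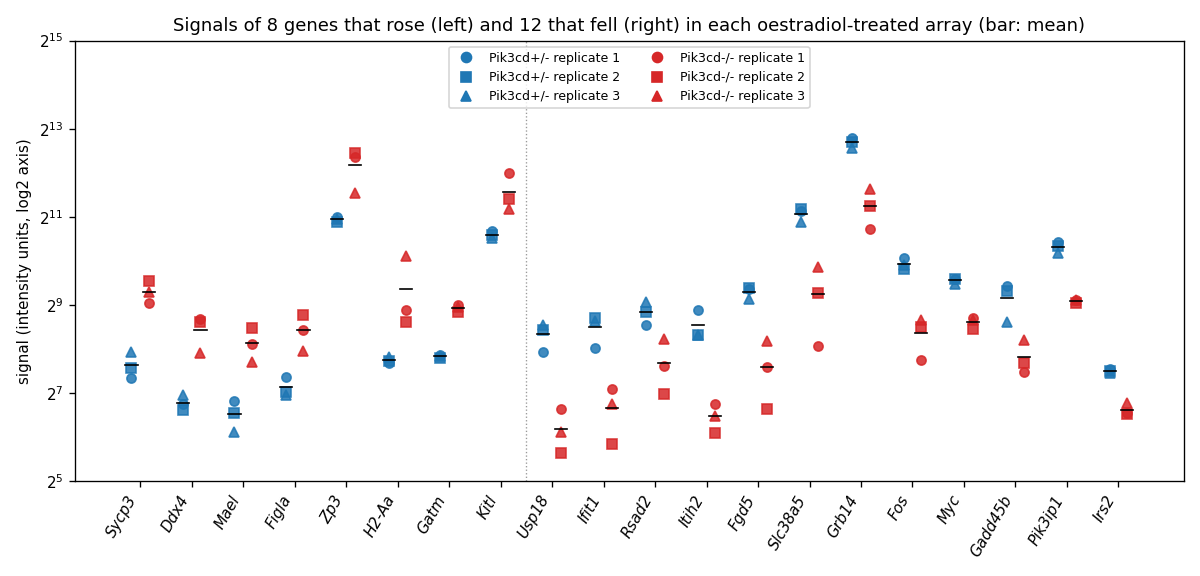
Signal of 8 genes that rose and 12 that fell in Pik3cd-/- ovaries after E2, in each of the 6 arrays on a log2 axis; colours give the genotype, marker shapes the replicate and bars the mean of 3 arrays. Pik3ip1 and Irs2 form tight groups, whereas the third Pik3cd-/- array is nearest to the controls for Ddx4, Zp3 and Slc38a5.

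Immediate early genes, which cells switch on within minutes of a signal, fell in part. Of 21 tested, 7 fell and none rose, where 12% of all genes fell and 4.85% rose, and the median was -0.28. Fos, a subunit of the AP-1 transcription factor, read 1075, 897 and 960.5 in the Pik3cd+/- arrays against 214, 363 and 405 in the Pik3cd-/- arrays (-1.60 ± 0.25, adjusted p = 0.00198). Myc, a transcription factor of cell growth, read 769, 771 and 718 in the Pik3cd+/- arrays against 414, 350.1 and 405 in the Pik3cd-/- arrays (-0.94 ± 0.10, adjusted p = 3.7e-04), with replicates within a narrow range. Jun and Junb, partners of Fos, fell by 0.77 ± 0.16 and 0.37 ± 0.12 (adjusted p = 0.00654 and 0.046). The zinc-finger factors Egr1 and Egr2 fell by 0.93 ± 0.22 and 0.58 ± 0.16 and Ccn1, a matrix protein, by 0.86 ± 0.20 (adjusted p = 0.0135, 0.0262 and 0.0122). Members that moved less were Dusp1, a phosphatase of MAP kinases (0.34 ± 0.19, adjusted p = 0.211), and Atf3 (-0.05 ± 0.11, adjusted p = 0.799). The count became 4 without Pik3cd+/- replicate 1, 4 without Pik3cd-/- replicate 1 and 3 in the fit of the E2 arrays alone. The calls of Fos, Myc and Jun held with any array left out. Those of Egr1, Egr2, Junb and Ccn1 depended on 1 array (adjusted p up to 0.06, 0.108, 0.186 and 0.0624). Fos was also called lower between the untreated genotypes (-1.37, adjusted p = 0.0247) and the PMSG-treated genotypes (-1.68, adjusted p = 0.00308), and Myc between the untreated ones (-0.72, adjusted p = 0.00782) but not after PMSG (-0.31, adjusted p = 0.0938).

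Interferon response genes, which type I interferon induces in most cells, had the largest median fall of the 30 lists, -0.78. Of 23 tested, 15 fell and none rose, where 12% of all genes fell and 4.85% rose. For 16 the 3 Pik3cd-/- arrays were all below the 3 Pik3cd+/- arrays, as for 24.5% of all genes. Usp18, which removes the ubiquitin-like ISG15 and damps the interferon receptor, read 245, 348 and 374 in the Pik3cd+/- arrays against 99.3, 50.05 and 69.4 in the Pik3cd-/- arrays (-2.04 ± 0.45, adjusted p = 0.0101), the second largest fall among called genes without overlap, after that of the uncharacterised 4933431K23Rik (-2.12). Ifit1, which blocks translation of foreign RNA, read 261, 419 and 398 in the Pik3cd+/- arrays against 137, 57.5 and 109 in the Pik3cd-/- arrays (-1.79 ± 0.47, adjusted p = 0.0208), and Ifit3 read 261, 483 and 424 in the Pik3cd+/- arrays against 175, 83 and 147 in the Pik3cd-/- arrays (-1.48 ± 0.44, adjusted p = 0.0334). Within the controls replicate 1 was the lowest for these 3 genes, and within the Pik3cd-/- group replicate 2 was.

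Sensors and regulators of the same response moved with them. The sensors of viral RNA Ddx58 and Ifih1 fell by 0.58 ± 0.14 and 0.84 ± 0.27 (adjusted p = 0.0157 and 0.0474). The transcription factors Irf7 and Irf9, which carry the signal to interferon response genes, fell by 1.13 ± 0.31 and 0.78 ± 0.19 (adjusted p = 0.0249 and 0.0148). Bst2, which tethers budding viruses to the cell, read 2049, 2046 and 1888 in the Pik3cd+/- arrays against 1319, 1302 and 1167 in the Pik3cd-/- arrays (-0.66 ± 0.13, adjusted p = 0.00697), and Rsad2, which makes an antiviral nucleotide, fell by 1.18 ± 0.28 (adjusted p = 0.0141). Gbp2, Cxcl10, Mx2 and Zbp1 did not pass, at 0.35, 0.30, -0.02 and -0.09. The number called was 3 without Pik3cd+/- replicate 2 and 7 and 5 without Pik3cd-/- replicates 1 and 2. In the fit of the E2 arrays alone it was 5. The calls of Usp18 and Bst2 held with any array left out, and those of Ifit1, Ifit3, Rsad2, Ddx58, Ifih1, Irf7 and Irf9 depended on 1 array (adjusted p up to 0.0761, 0.119, 0.0548, 0.0778, 0.127, 0.0863 and 0.0558). Macrophage genes, which mark one class of cells that respond strongly to interferon, had a summed signal of 5074 to 5358 in the controls and of 2798 to 10140.2 in the Pik3cd-/- arrays, where replicate 3 had more and replicate 2 less than any control; their part in the result was not tested.

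The same genes are set beside their change under E2 in each genotype, which shares arrays with the difference above. The median change of the 23 interferon genes from untreated to E2 was 0.91 in Pik3cd+/- and 0.17 in Pik3cd-/- ovaries. Over all genes limma called this change for 205 in Pik3cd+/- ovaries (1.61%, with 1.17% higher and 0.441% lower). In Pik3cd-/- ovaries it was called for 7 (0.0551%, with 0.00787% higher and 0.0472% lower). These 2 counts are no test between the genotypes, and limma called 0 genes in the test of the E2 difference against the untreated one. Ifit1 changed by 1.98 in Pik3cd+/- (adjusted p = 0.0471) and by 0.20 in Pik3cd-/- ovaries (adjusted p = 0.854), and Irf7 by 1.49 and 0.40 (adjusted p = 0.0279 and 0.54). Between the untreated genotypes the median was -0.01, with 1 gene higher, Gbp2 (0.99, adjusted p = 0.0274), and between the PMSG-treated genotypes it was -0.30, with none called; limma called no interferon gene in the test of the E2 difference against the untreated one (smallest adjusted p = 0.543).

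The promoters of Ifit1 and Ifit3 are shown because both genes fell and each holds 2 copies of GAAANNGAAA, the letters of an interferon-stimulated response element. The search covered both strands of the 250 bases before the start, and matches are in capitals (as TTTCNNTTTC where they lie on the other strand). In Ifit1 they begin 104 and 85 bases before the start and in Ifit3 156 and 122 bases before it. Sequences are from RefSeq on GRCm38.p6, 5′ to 3′, for Ifit1 chr19:34640639-34640888 and for Ifit3 chr19:34583279-34583528, both on the plus strand.
Ifit1: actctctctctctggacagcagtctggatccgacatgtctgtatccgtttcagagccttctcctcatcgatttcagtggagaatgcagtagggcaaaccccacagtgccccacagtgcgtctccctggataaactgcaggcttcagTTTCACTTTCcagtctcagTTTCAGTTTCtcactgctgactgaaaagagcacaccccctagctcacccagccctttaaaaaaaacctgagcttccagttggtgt
Ifit3: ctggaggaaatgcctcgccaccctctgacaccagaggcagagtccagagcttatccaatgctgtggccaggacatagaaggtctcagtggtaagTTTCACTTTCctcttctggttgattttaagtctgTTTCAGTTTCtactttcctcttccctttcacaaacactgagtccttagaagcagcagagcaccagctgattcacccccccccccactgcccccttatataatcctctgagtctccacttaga
Of 16 tested interferon genes with a RefSeq promoter, 9 held the letters (56.2%), and of the 11 called among them 4 did (Ifit1, Ifit3, Bst2 and Rsad2), against 2.96% of all tested genes with a promoter. Among all genes called lower after E2 the share was 2.57% and among those called higher 4.82%.

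Genes of MHC class II, which present antigen to helper T cells, moved the opposite way. Of 7 tested, 5 rose and none fell, with a median of 1.01, where 4.85% of all genes rose and 12% fell. H2-Aa, an alpha chain, read 207, 213 and 227 in the Pik3cd+/- arrays against 475, 394 and 1104 in the Pik3cd-/- arrays (1.42 ± 0.38, adjusted p = 0.0211), and H2-Ab1, a beta chain, read 93.2, 112 and 119 in the Pik3cd+/- arrays against 198, 185 and 425 in the Pik3cd-/- arrays (1.15 ± 0.31, adjusted p = 0.0227). Cd74, the invariant chain that guards the binding groove, read 138, 146 and 151 in the Pik3cd+/- arrays against 291, 200.3 and 661 in the Pik3cd-/- arrays (1.18 ± 0.36, adjusted p = 0.0386). The controls lay within a narrow range for all 3 genes, and Pik3cd-/- replicate 3 was far above the other 5 arrays. The count was 1, 0 and 3 without Pik3cd+/- replicates 1, 2 and 3, and 2 and 1 without Pik3cd-/- replicates 1 and 3. In the fit of the E2 arrays alone it was 0. The calls of H2-Aa, H2-Ab1 and Cd74 depended on 1 array (adjusted p up to 0.0693, 0.086 and 0.121). Between the untreated genotypes 4 of the 7 genes were also called higher (0.842% of all genes were), with a median of 1.39. After PMSG none was (3.09% of all genes were), with a median of 0.39. Of the macrophage list none of 21 genes was called, of T and NK cell genes none of 4 and of B cell genes none of 3. Among the Pik3cd-/- arrays both the macrophage and the MHC class II genes were lowest on average in replicate 2 (6.74 and 7.35 on the log2 scale) and highest in replicate 3 (8.37 and 8.19); the part of macrophages in the MHC class II result was not tested.

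Some markers of the surface epithelium were higher, while those of supporting tissue were mostly not called. Of all genes, 4.85% rose and 12% fell. Of 14 tested surface epithelium genes 4 rose and none fell, with a median of 0.36: Cdh1 (0.92 ± 0.22, adjusted p = 0.0153), the transcription factor Lhx9 (0.57 ± 0.14, adjusted p = 0.0171), the stem cell receptor Lgr5 (0.93 ± 0.24, adjusted p = 0.0192) and the signalling protein Wnt4 (0.71 ± 0.20, adjusted p = 0.0261). Granulosa cells and oocytes express some of these as well. The keratins Krt7, Krt8, Krt18 and Krt19, which the surface epithelium expresses strongly, did not pass, at 0.21, 0.11, 0.31 and 0.40, and within the Pik3cd-/- group all 4 were lowest in replicate 2. The 4 calls became 0 without Pik3cd-/- replicate 1 and 1 without Pik3cd+/- replicate 2, so all depended on 1 array (adjusted p up to 0.0838, 0.0817 and 0.115 for the last 3). All 4 also ended in the fit of the E2 arrays alone. Of the stromal fibroblast genes 1 rose and 1 fell of 19, and of smooth muscle genes none of 13 was called; the summed signal of the stromal genes ran from 45537 to 50218 in the controls and from 34656 to 69907 in the Pik3cd-/- arrays. Adipocyte genes gave 1 call of 10, a fall of Pparg, the transcription factor of fat cells that granulosa cells also express (-0.85 ± 0.26, adjusted p = 0.0351), which read 730.1, 634 and 585 in the Pik3cd+/- arrays against 304, 325 and 451 in the Pik3cd-/- arrays and depended on 1 array (adjusted p up to 0.126).

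Genes of cell division, energy use and cell death leaned lower, in a comparison where 12% of all genes fell and 4.85% rose. Of 23 genes of mitosis 7 fell and none rose (median -0.35), among them the mitotic kinesin Kif20a (-0.55 ± 0.11, adjusted p = 0.00697) and the cyclins Ccna2 (-0.58 ± 0.16) and Ccnb2 (-0.58 ± 0.17). The proliferation marker Mki67 fell by 0.59 ± 0.19 (adjusted p = 0.0412). The count of 7 became 2, 1 and 1 without Pik3cd+/- replicates 1 and 2 and Pik3cd-/- replicate 1, and 4 with quantile normalization. It was 0 in the fit of the E2 arrays alone. The calls of Ccna2, Ccnb2 and Mki67 depended on 1 array (adjusted p up to 0.0968, 0.129 and 0.173). Of 20 genes of DNA replication, in contrast, 2 rose and none fell, Uhrf1 (0.60 ± 0.14, adjusted p = 0.0118) and Slbp (0.40 ± 0.11, adjusted p = 0.0221), whose calls depended on 1 array (adjusted p up to 0.0572 and 0.0972).

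Of 16 tested genes of glycolysis 4 fell and none rose (median -0.26), where again 12% of all genes fell and 4.85% rose. Pfkp, a subunit of the phosphofructokinase that commits glucose to the pathway, read 256, 259.6 and 188 in the Pik3cd+/- arrays against 119, 106 and 142 in the Pik3cd-/- arrays (-0.89 ± 0.14, adjusted p = 0.0019), and Ldha, which makes lactate, read 2672, 2589.7 and 2401 in the Pik3cd+/- arrays against 1737, 1749 and 1922 in the Pik3cd-/- arrays (-0.50 ± 0.10, adjusted p = 0.00716). Hk2, the hexokinase that traps glucose in the cell, and Pfkl fell by 0.53 ± 0.10 and 0.49 ± 0.12 (adjusted p = 0.00553 and 0.0133). For all 4 genes the Pik3cd-/- arrays lay below every control. The list had 3 or 4 falls called with any array left out, and 1 rise besides without Pik3cd-/- replicate 3. In the fit of the E2 arrays alone it had 1 fall called. The call of Pfkl ended without Pik3cd+/- replicate 1 or 2 (adjusted p up to 0.0589). Of 18 genes of cell death 5 fell and 1 rose: the falls were those of Casp2, Diablo, Bcl2l11, Apaf1 and Bak1, all of which promote death (-0.31, -0.48, -0.79, -0.35 and -0.29), and the rise was that of the survival gene Bcl2 (0.52 ± 0.14, adjusted p = 0.0207), which oocytes express too. The falls became 2, 3 and 2 without Pik3cd+/- replicates 1 and 2 and Pik3cd-/- replicate 1, and the call of Bcl2 ended without the same arrays (adjusted p up to 0.0975). In the fit of the E2 arrays alone no cell death gene was called. Among the falls those of Diablo, Bcl2l11, Apaf1 and Bak1 depended on 1 array (adjusted p up to 0.0528, 0.0524, 0.126 and 0.157).

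The largest falls outside the lists were those of genes with varied roles. Slc38a5, a glutamine transporter, read 2263, 2318 and 1895 in the Pik3cd+/- arrays against 268, 617 and 931 in the Pik3cd-/- arrays (-1.98 ± 0.46, adjusted p = 0.0121), and its relative Slc38a3 read 1019, 1121 and 951 in the Pik3cd+/- arrays against 201, 357 and 629 in the Pik3cd-/- arrays (-1.50 ± 0.34, adjusted p = 0.0121). In both, Pik3cd-/- replicate 1 was the lowest and replicate 3 the nearest to the controls, and both calls ended without Pik3cd-/- replicate 1 (adjusted p = 0.0616 and 0.0599). Itih2, a heavy chain that stabilises hyaluronan in the matrix of the cumulus, read 476, 321 and 318 in the Pik3cd+/- arrays against 109, 68.6 and 89.8 in the Pik3cd-/- arrays (-1.96 ± 0.27, adjusted p = 0.00122). Fgd5, an exchange factor for the GTPase Cdc42, read 663, 664 and 566 in the Pik3cd+/- arrays against 194, 100.04 and 289 in the Pik3cd-/- arrays (-1.77 ± 0.26, adjusted p = 0.00176). Rgs13, which ends G protein signals, fell by 1.83 ± 0.51 and Sgpp2, a phosphatase of sphingosine-1-phosphate, by 1.58 ± 0.30 (adjusted p = 0.0249 and 0.00485). Myf5, a transcription factor known from muscle, Krt20, a keratin, and Tdgf1, a co-receptor of Nodal, fell by 1.61 ± 0.25, 1.51 ± 0.23 and 1.55 ± 0.38 (adjusted p = 0.0019, 0.00176 and 0.0157). The calls of Rgs13 and Tdgf1 depended on 1 array (adjusted p up to 0.108 and 0.0552).

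The genotype differences of untreated and PMSG-treated ovaries come from other arrays than those after E2. Limma called 277 genes between the untreated genotypes and 526 between the PMSG-treated ones. Of the genes called higher after E2, 82 were also called higher in untreated ovaries, which is 13.3% of the E2 list and 76.6% of the untreated list, and 221 after PMSG (35.8% and 56.2%). Of those called lower after E2, 123 were also lower in untreated ovaries (8.07% and 72.4%) and 88 after PMSG (5.77% and 66.2%). No gene was called in opposite directions after E2 and in untreated ovaries, and 1 was after E2 and PMSG. In all 3 states 50 genes were called higher and 21 lower. Across the 12711 genes, which are not independent replicates, the E2 difference correlated with the untreated one at r = 0.644 and with the PMSG one at r = 0.599. Among the genes shared by all 3 states, Col18a1, a basement membrane collagen, was higher by 0.78, 0.74 and 0.76 after E2, untreated and after PMSG, and Gatm by 1.08, 0.71 and 1.13. Prkab2, a subunit of the energy sensor AMPK, was lower by -0.97, -0.54 and -0.51, and Myocd, a coactivator of smooth muscle genes, by -1.25, -0.97 and -0.99.

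**Figure D4:**
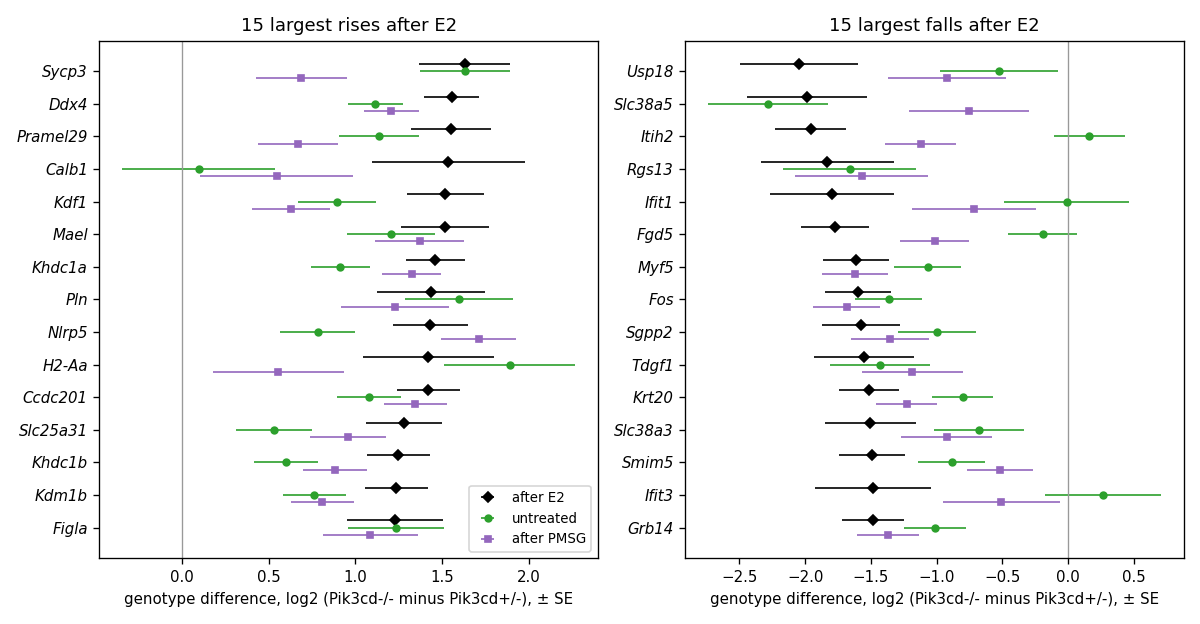
Genotype difference (log2, Pik3cd-/- minus Pik3cd+/-, ± SE, 3 arrays a group) of the 15 largest rises and 15 largest falls after E2, with the same genes in untreated and PMSG-treated ovaries. Sycp3 was at 1.63 after E2 and 1.63 in untreated ovaries, while Itih2 was at -1.96 after E2 and 0.16 in untreated ovaries; genes were chosen for their E2 value.

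Whether the genotype difference after E2 departed from that in another state was tested as the difference of genotype differences. Against the untreated genotypes limma called 0 genes (924 at an unadjusted p under 0.05, 7.27% of all; smallest adjusted p = 0.25), and against the PMSG-treated genotypes 0 as well (1797, 14.1%; smallest adjusted p = 0.157). The genes nearest to the threshold against untreated ovaries included Coq8a, which supports coenzyme Q synthesis and read 657, 602 and 736 in the Pik3cd+/- arrays against 345, 366 and 376 in the Pik3cd-/- arrays after E2 (-0.86, against -0.06 untreated; -0.80 ± 0.13, adjusted p = 0.25). Itih2 was at -1.96 after E2 and 0.16 untreated (-2.12 ± 0.38, adjusted p = 0.306), and Ntn4, a netrin of basement membranes, at -1.13 and 0.52 (-1.65 ± 0.35, adjusted p = 0.386). Against PMSG the mitochondrial protein C1qbp was at -0.32 and 0.06 (-0.39 ± 0.07, adjusted p = 0.157). None of these passed.

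The count of 0 against untreated ovaries changed when a single array was left out. Without Pik3cd-/- replicate 3 of the E2 group, 69 of 12711 genes were called, 54 with a more positive and 15 with a more negative difference after E2. Of the 69, 55 were among the 2141 called between the E2-treated genotypes with all arrays. Of the oocyte list 6 of 29 were more positive, against 54 of all 12711 genes. These were Nlrp14 (0.92 ± 0.10, adjusted p = 0.00113), Zp3 (0.78 ± 0.10, adjusted p = 0.00328) and H1f8 (0.81 ± 0.15, adjusted p = 0.0258). The others were Gdf9 (0.67 ± 0.13, adjusted p = 0.0393), Pou5f1 (0.87 ± 0.18, adjusted p = 0.0474) and Uchl1 (0.62 ± 0.13, adjusted p = 0.0488). Among the negative ones were Fgd5 (-1.91 ± 0.30, adjusted p = 0.0153), Coq8a (-0.83 ± 0.14, adjusted p = 0.022), Itih2 (-2.13 ± 0.42, adjusted p = 0.0393) and Insr (-0.67 ± 0.13, adjusted p = 0.0409). With that array in place no gene was called, so these differences rest on its removal.

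The genes around Pik3cd on chromosome 4 were listed in the order of RefSeq on GRCm38.p6, since alleles near a targeted gene can come from the other parental strain. Of the 20 genes on either side, 28 were tested, 2 rose and 5 fell, where 4.85% of all genes rose and 12% fell. Their median was -0.10, and none was called in all 3 states. On the whole of chromosome 4, 16.5% of 793 tested genes were called, against 16.8% of all genes. Whether the counts near Pik3cd departed from these shares was not tested. The falls were those of Spsb1, an adaptor of a ubiquitin ligase (-0.86 ± 0.13, adjusted p = 0.00176), Pgd, of the pentose phosphate pathway (-0.52 ± 0.08, adjusted p = 0.00176), Kif1b, a kinesin (-0.36), the mitochondrial carrier Slc25a33 (-0.59) and Dffa, an inhibitor of the nuclease of dying cells (-0.36). The rises were those of Cenps, a centromere protein (0.57), and Clstn1, a calsyntenin (0.32). The calls of Cenps, Clstn1, Dffa and Kif1b depended on 1 array (adjusted p up to 0.104, 0.0813, 0.0843 and 0.0583).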

How the data were processed

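Total RNA of 18 samples of whole mouse ovaries was hybridised to Affymetrix Mouse Genome 430 2.0 arrays, and the deposited values are linear intensities of 45101 probe sets that the authors made with MAS5, per the submitters' processing notes, with array medians of 48.9 to 50.6 in the 6 E2 arrays. The log2 values were computed here as log2(signal + 8.58), the added value being the 10th percentile of all signals. Control probe sets and those without exactly 1 gene symbol were left out, a probe set was tested where some group's mean exceeded the median of all values, and the brightest probe set stood for a gene. Of 34945 probe sets with 1 symbol, 34741 had a gene in RefSeq. The 6 groups were fitted together with limma 3.58.1 in R 4.3.3 (eBayes with trend, two-sided, Benjamini-Hochberg over 12711 genes, threshold 0.05), and the fit was tested on simulated data first. Members and gene lists were chosen with earlier results of these data known. Genes named were Pik3cd, the 15 largest rises and 15 largest falls among called genes without overlap (clone names left out), in each list up to 4 called members by smallest adjusted p, a fixed panel, the 5 smallest p in each test of a difference of differences, called genes among 20 on either side of Pik3cd, and up to 15 genes called in all 3 states; others were named as list members after their values were seen. Replicates are labelled biological, but not which animals they came from, so p-values measure only the spread between these samples. The labels do not say whether the same replicate number pairs arrays of both genotypes, and pairing was not tested. Same-numbered arrays had correlations of deviations of 0.08, -0.17 and 0.04 after E2 and of 0.25, 0.25 and 0.30 after PMSG. In untreated ovaries they were -0.35, 0.14 and -0.03. Pairs with unlike numbers ran from -0.26 to -0.03 after PMSG, but reached 0.23 after E2 and 0.39 in untreated ovaries. The alternatives were other pseudocounts, filters, normalization, probe sets and fits, and each array left out. Some genes of the fixed panel are not reported here.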

Additional observations from a re-analysis of the deposited data

Results flagged for a closer look

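For 7 named genes the 3 Pik3cd-/- arrays lay on one side of the 3 Pik3cd+/- arrays after E2 and on the opposite side in another state. The opposite direction as such was not tested. The limma test of the difference between the 2 genotype differences is given for each of the 7 genes, and none passed. Named genes included those with the smallest p in these same tests, so the opposite direction was partly fixed by the choice. After E2 the arrays of the genotypes did not overlap for 33.3% of all genes. The share of all genes with opposite directions in 2 states was not counted, so the 7 have no background to be read against. Ntn4, a netrin of basement membranes, was at -1.13 after E2 and at 0.52 in untreated ovaries (adjusted p of the difference = 0.386).

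The other 6 were lower in Pik3cd-/- ovaries after E2 and higher after PMSG. The mitotic genes Cenpe and Cenpf, a kinesin and a kinetochore protein, were at -0.41 and -0.35 after E2 and at 0.30 and 0.41 after PMSG (adjusted p of the difference = 0.157 for both). Sema4d, a semaphorin, was at -0.65 and 0.34, and Tnrc6a, a protein of microRNA silencing, at -0.43 and 0.23 (adjusted p of the difference = 0.157 for both). The long noncoding RNA Tug1 was at -0.29 and 0.24 (adjusted p of the difference = 0.157), and Parm1 at -0.38 and 0.10 (adjusted p of the difference = 0.186). With the probe set of highest variance in place of the brightest, Cenpe, Cenpf and Parm1 were at -0.0123, -0.41 and -0.25 after E2 and were not called (adjusted p = 0.969, 0.154 and 0.134), and Tnrc6a and Tug1 did not fall. Groups of 3 arrays are too small for a test of outlying samples.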

How the results depend on the processing

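The number of genes called after E2 stayed within 1.5 times of 2141 with a pseudocount of 1 or 64, without a filter or with one at the 70th percentile, without the eBayes trend, with the probe set of highest variance (1826 to 2152 genes) and with quantile normalization (1788, of which 1002 lower). It was 129 with a 2-fold minimum besides the adjusted p. In the fit of the 2 groups alone it was 100 (20 higher and 80 lower). With the replicate number as a block it was 1830 after E2 (531 higher and 1299 lower), 70 genes were called higher between the untreated genotypes, and 1 gene was called in the test of E2 against untreated; the list of MHC class II genes had 3 calls in place of 5, and Cd74, Kit and Hmgcs1 were the named genes that lost their call. Between the PMSG-treated genotypes, where same-numbered arrays correlated best, the block gave 464 genes in place of 526. Whether the numbers pair arrays was not tested. Of the Pik3cd+/- E2 arrays replicates 1 and 2 correlated better with another number (0.17 and 0.23) than with their own (0.08 and -0.17).

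Leaving out 1 array gave 644 to 2940 genes after E2 (123 to 1221 higher, 513 to 1835 lower), 1 to 676 between the untreated genotypes (1 to 155 higher, 0 to 521 lower), 82 to 384 between the PMSG-treated genotypes (67 to 275 higher, 15 to 109 lower), 0 to 69 in the test of E2 against untreated and 0 in that against PMSG. Alternatives for the untreated and PMSG counts were chosen after seeing the data. Between the untreated genotypes quantile normalization gave 425 genes (164 higher, 261 lower) and the fit of the 2 groups alone 95 (56 higher, 39 lower). Between the PMSG-treated genotypes that fit gave 990 (741 higher, 249 lower), and with the 4 groups alone 1 gene was called in the test of E2 against untreated. For Tnrc6a and Tug1 the probe set of highest variance, a different one, gave 0.0284 (adjusted p = 0.914) and 0.0137 (adjusted p = 0.976) in place of a fall; 7 other named genes lost their call with that probe set, C1qbp, Cenpe, Cenpf, Ctsl, Lhx9, Parm1 and Uhrf1, and the cause of these changes was not tested. Of 114 named genes called after E2, 65 kept their call with any array left out and 35 in the fit of the 2 groups alone. Signal near the lower end of the scale limits the value of dim genes such as Igfbp1.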

Other observations

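Genes of matrix turnover and of vessels were also measured in the Pik3cd-/- ovaries after E2, where 4.85% of all genes rose and 12% fell. Of 17 matrix proteases and inhibitors 2 rose and 4 fell: Adamts5, which cleaves proteoglycans, read 345, 243 and 374 in the Pik3cd+/- arrays against 129.6, 123 and 227 in the Pik3cd-/- arrays (-0.996 ± 0.21, adjusted p = 0.00836), and its call held with any array left out, as did that of Runx1 (-1.003 ± 0.22, adjusted p = 0.00939), a transcription factor that LH induces and the 1 call among 11 genes of the LH response. The inhibitor Timp3 rose by 0.49 ± 0.12 (adjusted p = 0.0166). Of 20 endothelial genes 2 rose, Lyve1 (0.86 ± 0.23, adjusted p = 0.0233), the hyaluronan receptor of lymphatic vessels, and Mmrn1 (0.82 ± 0.14, adjusted p = 0.00317), which lymphatic vessels also express. The other 18 genes of the list were not called, among them Flt4, a receptor that lymphatic vessels express as well (-0.03 ± 0.12, adjusted p = 0.894), and Prox1, the transcription factor of lymphatic vessels, was below the filter. Of 13 luteal genes 3 rose and 1 fell, of 25 genes of basal lamina and collagen 1 rose and 1 fell, and of 20 genes of cholesterol synthesis 1 rose and 1 fell. None of 9 oviduct and none of 3 blood genes was called; the summed signal of the oviduct genes was 599.7 to 666 in the Pik3cd+/- and 462 to 779 in the Pik3cd-/- arrays. The calls of Timp3 and Lyve1 each ended with 1 array left out (adjusted p up to 0.0818 and 0.117).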
